A study of Mus musculus with 4 samples.

Results

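The 10 genes examined here, all but one encoding secreted non-collagen proteins of connective tissue matrix, were Mgp, Dcn, Bgn, Lum, Lox, Sparc, Postn, Tnc, Fn1 and S100a4, the last a calcium-binding protein used as a fibroblast marker. They were taken by name, as every probe set annotated to one of these symbols alone, which gave 19 probe sets for the 10 members out of 34945 probe sets for 18193 genes. Several were selected on their signal, because it was set apart from the other arrays on the one labelled HB9-GFP+. Their differences that involve that array are therefore a description of how they were chosen. The comparisons among the other 3 arrays do not use that array, but they are not free of the choice. It favoured genes low on those arrays, and the members were chosen with earlier results known.

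RNA from each kind of cell was hybridised to 1 Affymetrix array. The first array was labelled as HB9-GFP+ cells, sorted on day 8 from a transgenic embryonic stem (ES) cell line in which the promoter of HB9, a motor neuron transcription factor, marks cells by green fluorescence. Per the labels these cells had been given sonic hedgehog, retinoic acid and purmorphamine in differentiation medium, over a period that is stated to run past the day of the sort, so the exposure is uncertain. The second array was cerebellar granule cells of postnatal day 6, the third sorted Sox1 neural stem cells, whose derivation was not given in the sources used here, and the fourth undifferentiated ES cells. The HB9 ES cell line was grown on mouse embryonic fibroblasts made non-dividing with mitomycin C, with leukemia inhibitory factor. No genotype or strain beyond the HB9 reporter, and no age other than that of the granule cells, was given in the sources used here. With 1 array per kind of cell there was no replicate error, no test and no p-value, and every difference below is one between 2 arrays.

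The extracellular matrix of connective tissue is secreted mainly by fibroblasts and their relatives. Collagen fibrils give it strength, small leucine-rich proteoglycans bind the fibrils and set their spacing, lysyl oxidase crosslinks them, and adhesive glycoproteins such as fibronectin connect the network to integrins on the cell surface. Matricellular proteins such as tenascin C, periostin and SPARC modulate adhesion and matrix assembly without being main structural parts. The brain has little fibrillar matrix outside its meninges and vessels, and its interstitial matrix is built around hyaluronan, lecticans and tenascins.

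The promoter bases of members for which RefSeq (GRCm38.p6) gave a start are shown first, because they set members undetected on some arrays beside a member, Sparc, detected on all 4. Such windows were found for 5 members, Bgn, S100a4, Postn, Tnc and Sparc, with 7 starts in all. The 100 bases before the start are printed 5′ to 3′, with the letters TATAAA in capitals where present on either strand. For Postn and Tnc, which have 2 starts each, the window of the more downstream start is shown.
Bgn, chrX:73483501-73483600, plus strand: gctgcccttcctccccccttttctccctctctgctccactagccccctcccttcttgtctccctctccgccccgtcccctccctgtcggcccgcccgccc
S100a4, chr3:90603670-90603769, plus strand: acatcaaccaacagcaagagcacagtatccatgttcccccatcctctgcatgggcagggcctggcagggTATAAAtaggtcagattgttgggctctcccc
Postn, chr3:54361007-54361106, plus strand: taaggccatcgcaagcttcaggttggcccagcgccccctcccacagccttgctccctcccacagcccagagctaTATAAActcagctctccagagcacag
Tnc, chr4:64046937-64047036, minus strand: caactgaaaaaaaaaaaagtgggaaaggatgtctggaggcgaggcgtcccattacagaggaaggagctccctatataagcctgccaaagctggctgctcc
Sparc, chr11:55420081-55420180, minus strand: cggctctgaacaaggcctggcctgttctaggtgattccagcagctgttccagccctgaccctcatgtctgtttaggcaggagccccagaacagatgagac

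The capitals begin at base -31 for S100a4 and at base -26 for Postn, counted from the base before the start. TATAAA was present in 2 of the 7 member windows of 100 bases, against 5.56% of 32841 such windows over all genes. The AP-1 motif TGANTCA, where N is any base and which reads the same on both strands, was present in 0 of the 7, against 2.73%. The GC content of the printed windows ranged from 50% for Tnc to 71% for Bgn. A match of letters is not evidence of a bound site, and the absence of a match covers this window only.

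The 4 arrays were similar in the number of genes detected, from 9330 to 9518. A gene was called detected where its signal was at least 157.5, which is 1 log2 unit above a low level of 78.8, and signals under the low level were set to it before a difference was taken. The actin probe sets gave a 3′ to 5′ ratio of 2.77 on the array labelled HB9-GFP+, 2.29 for granule cells, 5.08 for Sox1 cells and 4.55 for ES cells, and those of Gapdh were 1.37, 2.70, 3.68 and 1.99 in the same order. The part of these differences in the results was not tested. The array labelled HB9-GFP+ stood against its label: of 10 motor neuron markers only Olig2 was detected, and Mnx1, which encodes HB9, had a signal of 15.9, while all 15 pluripotency markers measured were detected there, as they were for ES cells.

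All 10 members were detected on the array labelled HB9-GFP+, 6 were detected for granule cells, and the same 2, Sparc and Fn1, were the members detected for Sox1 cells and for ES cells. By the probe set that represents the gene, 9 members were highest on the array labelled HB9-GFP+ and Tnc was highest in granule cells. Without Fn1, whose other probe set was highest in ES cells, the number is 8. In both Sox1 cells and ES cells, 7 members were below the low level. By where they were detected the members fell into 3 kinds. The first were undetected outside the array labelled HB9-GFP+ (Mgp, Lox, S100a4, Postn). The second were also detected in granule cells (Dcn, Bgn, Lum, Tnc), and the third in every kind of cell (Sparc, Fn1). Postn, at 142.2 in granule cells, was kept out of the second kind only by the detection level.

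**Figure D1:**
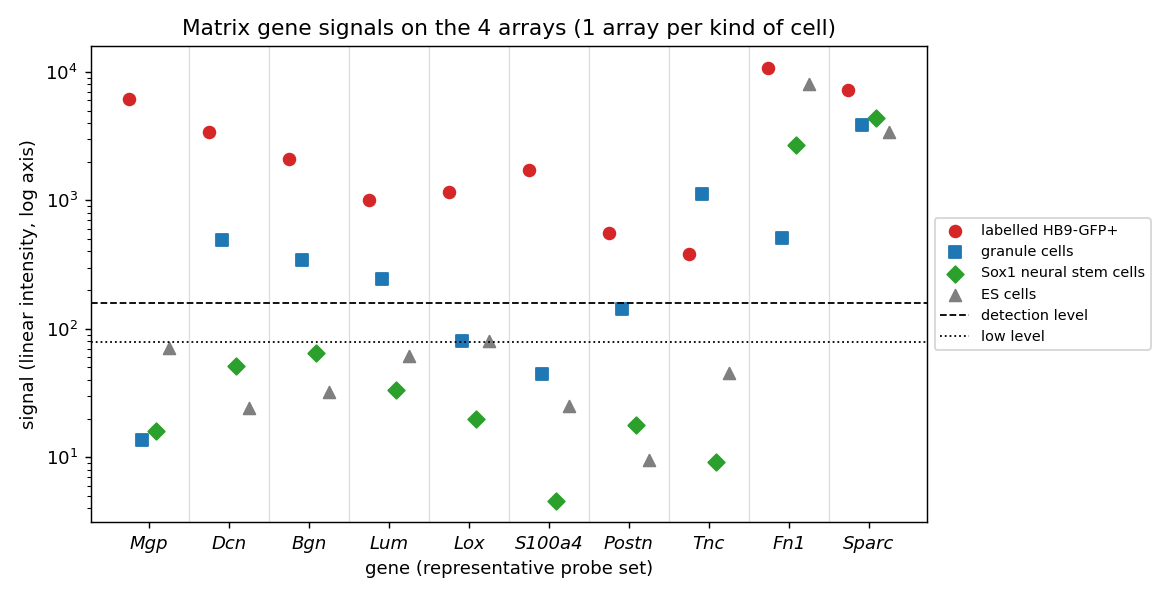
Signal of each matrix gene (linear intensity on a log axis) on the 4 arrays, 1 point per array, for the probe set that represents the gene; the dashed line is the detection level of 157.5 and the dotted line the low level of 78.8. All 10 genes lie above the dashed line on the array labelled HB9-GFP+, while only Fn1 and Sparc do so on all 4 arrays.

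The members of the first kind are described first. Mgp encodes matrix Gla protein, a vitamin K-dependent inhibitor of calcification made by vascular smooth muscle, cartilage and fibroblasts. Its single probe set had a signal of 6205.5 on the array labelled HB9-GFP+, 13.7 for granule cells, 16.1 for Sox1 cells and 70.7 for ES cells. It was undetected on all arrays but one, and on that array it was at least 78.8-fold above every other one.

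S100a4, also called fibroblast-specific protein, encodes a small calcium-binding protein that acts inside and outside the cell and is often used as a fibroblast marker, although macrophages also make it. It had a signal of 1710.3 on the array labelled HB9-GFP+, 44.1 for granule cells, 4.6 for Sox1 cells and 25.2 for ES cells. The 3 other arrays were all below the low level, so the difference was at least 21.7-fold against each.

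Lox encodes lysyl oxidase, the copper enzyme that starts the crosslinking of collagen and elastin. Its brightest probe set gave 1162.9 on the array labelled HB9-GFP+, 79.7 for granule cells, 19.8 for Sox1 cells and 80.1 for ES cells. A further probe set gave 206.1, 9.0, 7.2 and 31.0 in the same order, and the remaining one was undetected on all 4 arrays, at 47.7 at most. The 2 detected probe sets were both highest on the same array but differed in size, with a log2 difference from ES cells of 3.86 on the brightest and at least 1.39, short of 4-fold, on the other.

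Postn encodes periostin, a secreted fasciclin-domain protein of periosteum, tendon and activated fibroblasts. On the array labelled HB9-GFP+ Postn had a signal of 560.4, against 142.2 for granule cells, 17.8 for Sox1 cells and 9.5 for ES cells. It was at least 7.12-fold higher on the array labelled HB9-GFP+ than in either Sox1 or ES cells, and its granule cell signal was over the low level but not detected.

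The second kind begins with the small leucine-rich proteoglycans. Dcn, Bgn and Lum encode decorin, biglycan and lumican, which carry glycosaminoglycan chains on a core of leucine-rich repeats and bind collagen fibrils and growth factors. For Dcn, the main probe set gave 3375.9 on the array labelled HB9-GFP+, 494.6 for granule cells, 51.6 for Sox1 cells and 24.0 for ES cells. Dcn was thus detected on 2 arrays and was 6.83-fold higher on the array labelled HB9-GFP+ than in granule cells. Its other probe set was undetected everywhere, with signals of 4.1, 10.8, 35.0 and 34.5 in the same order, so Dcn rests on a single working probe set.

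Bgn was the member with the most informative probe sets, 3 in all. Their signals on the array labelled HB9-GFP+ were 2105.6, 1706.5 and 1769.0, against 341.9, 202.5 and 152.9 for granule cells. For Sox1 cells they were 64.8, 28.3 and 2.5, and for ES cells 32.0, 4.1 and 7.8. All 3 thus gave the same order of the first 2 arrays above the other 2, and the log2 difference between the array labelled HB9-GFP+ and granule cells ranged from 2.62 to 3.53 over them. The third of these probe sets is of the type that can cross-hybridise with related sequences.

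Lum, measured by 1 probe set, had a signal of 1000.0 on the array labelled HB9-GFP+, 243.5 for granule cells, 33.3 for Sox1 cells and 61.5 for ES cells. It was detected on the same 2 arrays as Dcn and Bgn. Lum lies next to Dcn among the protein-coding genes of chromosome 10 in the RefSeq annotation, followed by Kera and Epyc, 2 further genes of the leucine-rich proteoglycan family. On the array labelled HB9-GFP+ Kera had a signal of 4.2, against at most 5.3 elsewhere, and Epyc 119.6, against at most 34.1, so these neighbours were undetected on all 4 arrays.

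Tnc, which encodes tenascin C, a large hexameric glycoprotein of embryonic mesenchyme, tendon and glia, had a different pattern. Its main probe set gave 384.2 on the array labelled HB9-GFP+, 1123.2 for granule cells, 9.2 for Sox1 cells and 45.2 for ES cells. The granule cell signal was the highest. Its other probe set gave 1.0 on the array labelled HB9-GFP+, 319.9 for granule cells, 2.7 for Sox1 cells and 3.9 for ES cells. The detection of Tnc on the array labelled HB9-GFP+ therefore rests on 1 of 2 probe sets, while that in granule cells was given by both.

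The third kind holds Fn1 and Sparc. Fn1 encodes fibronectin, the adhesive glycoprotein bound by integrins, which is also made by early embryonic cells. Its main probe set gave 10804.8 on the array labelled HB9-GFP+, 508.4 for granule cells, 2675.3 for Sox1 cells and 8058.9 for ES cells. Its other probe set gave 834.1, 75.1, 291.5 and 1792.6 in the same order. Granule cells were lowest by both, but the order of the first and last arrays was opposite, with a log2 difference of 0.42 on the main probe set and -1.10 on the other, so no direction can be given between the array labelled HB9-GFP+ and ES cells.

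Sparc encodes a calcium- and collagen-binding glycoprotein also known as osteonectin, which is made by many cells including endoderm, glia and fibroblasts. Its main probe set gave 7242.1 on the array labelled HB9-GFP+, 3837.6 for granule cells, 4370.3 for Sox1 cells and 3395.3 for ES cells. A further probe set gave 2987.2, 1481.7, 1296.0 and 1400.5 in the same order, and the remaining one was undetected on all 4. The array labelled HB9-GFP+ was highest by both, by 1.66-fold to 2.30-fold, and the other 3 arrays lay within 1.29-fold of each other.

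**Figure D2:**
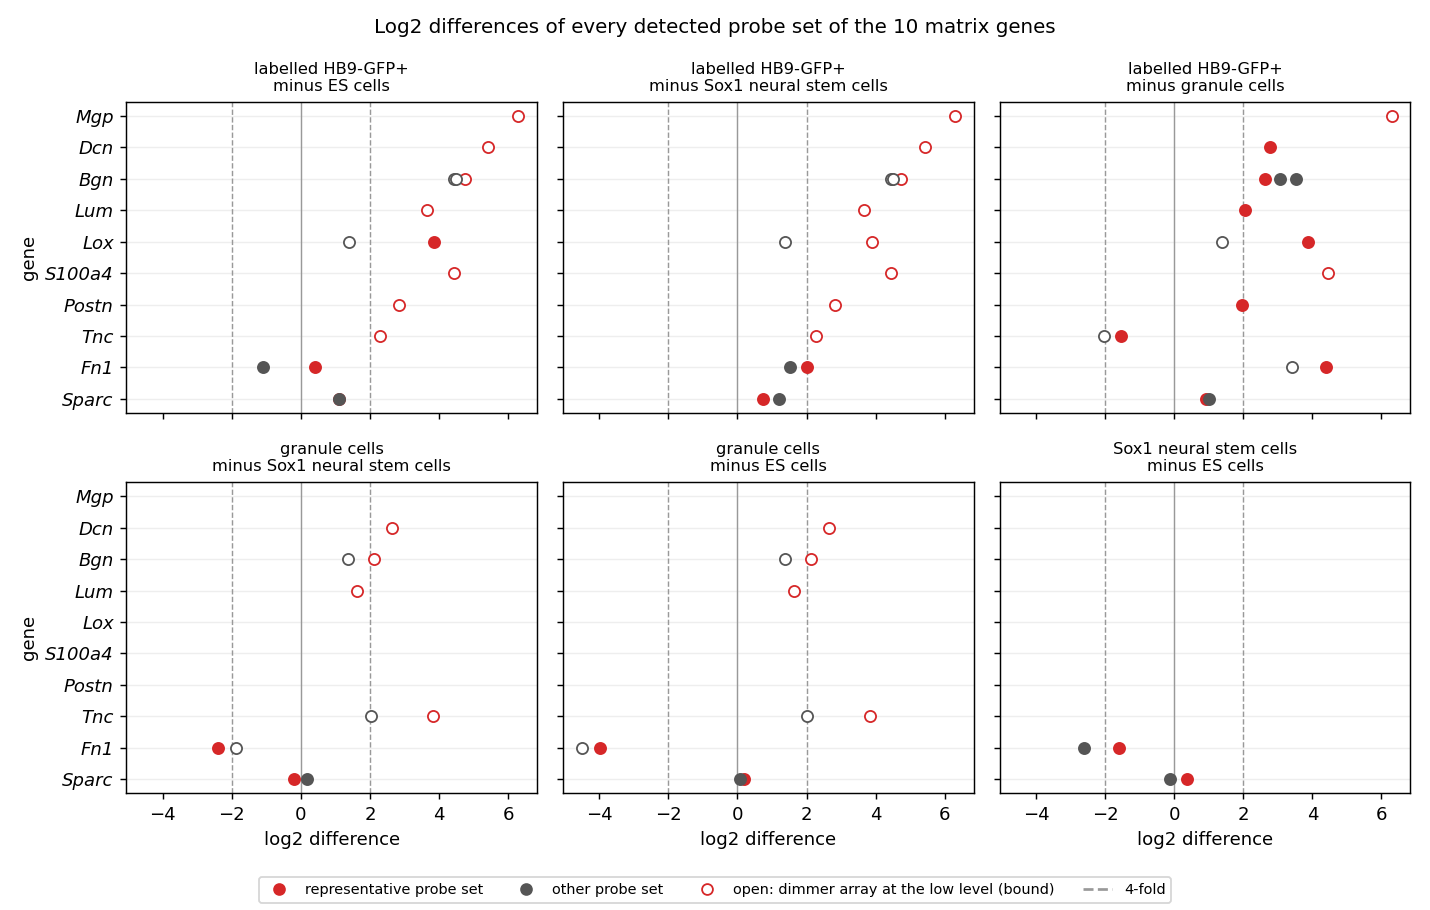
Log2 differences (x axis) of every detected probe set of the 10 matrix genes in the 6 comparisons of arrays, with red points for the probe set that represents the gene, grey points for other probe sets, open points for lower bounds and dashed lines at 4-fold. The 3 Bgn points lie together in each upper panel, whereas the 2 Fn1 points fall on opposite sides of 0 between the array labelled HB9-GFP+ and ES cells.

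The array labelled HB9-GFP+ was set against undifferentiated ES cells, which carried the same pluripotency markers. A gene was called higher or lower where it differed by at least 4-fold and was detected on the brighter array. By this rule 8 of the 10 members, all but Sparc and Fn1, were called higher and 0 lower on the array labelled HB9-GFP+, where 2.00% of the 10117 genes detected on either array were called higher and 1.46% lower. The median log2 difference of the members was 3.76 and that of all detected genes 0.04. Since this contrast served to choose the members, nothing is read from that count or from their median.

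Against Sox1 neural stem cells, 9 of the 10 members, all but Sparc, were called higher and 0 lower, beside 5.58% of 10496 genes higher and 6.89% lower. Fn1 was just over the threshold here, at 4.04-fold on its main probe set and 2.86-fold on the other. Against granule cells, 7 members were called higher and 0 lower, beside 9.21% of 10922 genes higher and 12.3% lower. These were Mgp, Dcn, Bgn, Lum, Lox, Fn1 and S100a4. Fn1 was 21.3-fold higher on its main probe set and at least 10.6-fold on the other, while Tnc was 2.92-fold lower on its main probe set and at least 4.06-fold lower on the other. The 3 contrasts share the array labelled HB9-GFP+ and are not independent. They served in part to choose the members, so nothing is read from their counts.

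On the array labelled HB9-GFP+ 6 members, Mgp, Dcn, Bgn, Lum, Lox and S100a4, were at least 4-fold above every other array, beside 0.804% of the 9330 genes detected there. The values nearest to this limit were those of Lum, just inside at 4.11-fold over granule cells, and of Postn, just outside, with a log2 difference of 1.98 from granule cells. A gene set apart on 1 array cannot meet the rule on another, so for the 6 members that outcome was fixed. The other members, Postn, Tnc, Fn1 and Sparc, did not meet it on the granule, Sox1 or ES array. Over all genes detected on each, 5.19%, 1.19% and 0.478% did. As members were chosen in part for this pattern, nothing is read from these counts. Since these arrays come from bulk RNA, fewer cells of a type and less RNA per cell cannot be told apart in any of these differences.

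The comparisons that leave out the array labelled HB9-GFP+ were made next. Between granule cells and ES cells, 3 of the 6 members detected on either array were higher in granule cells, Dcn, Bgn and Tnc, and 1 was lower, Fn1, beside 11.3% of 10970 genes higher and 8.27% lower. Tnc was at least 14.3-fold higher in granule cells on its main probe set and at least 4.06-fold on the other. Dcn was at least 6.28-fold higher and Bgn at least 4.34-fold, while the other Bgn probe sets did not reach 4-fold, with at least 2.57-fold on one and no detection on the last. Fn1 was 15.9-fold lower in granule cells, and at least 22.8-fold lower on its other probe set.

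Between granule cells and Sox1 neural stem cells the same genes were called, 3 members higher and 1 lower of 6 detected, beside 6.39% of 10405 genes higher and 3.65% lower. Tnc, Dcn and Bgn had the same bounds as against ES cells, because both Sox1 and ES signals lay under the low level. Fn1 was 5.26-fold lower in granule cells than in Sox1 cells on the main probe set and at least 3.70-fold lower on the other. Lum, at 243.5 in granule cells, was at least 3.09-fold higher than in Sox1 or ES cells, which falls short of the threshold.

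Between Sox1 neural stem cells and ES cells, 0 of the 2 members detected were called in either direction, beside 6.20% of 10532 genes higher and 5.21% lower. The value for Fn1 was 3.01-fold lower in Sox1 cells on the main probe set and 6.15-fold lower on the other, so it passed 4-fold on 1 of 2 probe sets. Sparc differed by 0.36 log2 units on one probe set and -0.11 on the other. Probe sets of 1 gene differed from each other in this contrast with a pooled SD of 0.56 log2 units, and between 0.60 and 0.85 in the other 5, a technical spread that holds no variation between cultures or animals.

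Genes related to the members by family or role were examined next, in 12 lists that held 155 measured genes. Here and below, a share over all genes is a share of the genes detected on either array compared. Between the array labelled HB9-GFP+ and ES cells, 7 of these genes were higher and 0 lower of 80 detected on either array, beside 2.00% higher and 1.46% lower over all genes. Between granule cells and ES cells 26 were higher and 15 lower of 93 detected, beside 11.3% and 8.27% over all genes. Of 11 further small leucine-rich proteoglycan genes, 0 were called in any of the 6 comparisons, and Podn, at 193.2 in Sox1 cells, was the single one detected on any array. Fmod, Ogn and Aspn, which encode relatives of lumican and decorin, had at most 39.8 on the array labelled HB9-GFP+. With 0 of the 11 detected on the array labelled HB9-GFP+ or in ES cells, no difference could be measured for this list between them.

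Of 12 further S100 family genes, 4 were detected on the array labelled HB9-GFP+ or in ES cells. The array labelled HB9-GFP+ had 1 higher than in ES cells and 0 lower, beside 2.00% and 1.46% over all genes. This was S100a6, a calcium-binding protein gene near S100a4 in a cluster on chromosome 3, with a signal of 1966.2 on the array labelled HB9-GFP+, 456.4 for granule cells, 129.4 for Sox1 cells and 390.7 for ES cells. Like S100a4, it was at least 4-fold above every other array there. Its neighbours S100a3 and S100a5 had at most 23.6 and 83.8 on any array, under the detection level. In granule cells 4 of the 12 were higher than in ES cells and 0 lower, with 6 detected on either array. Over all genes 11.3% were higher and 8.27% lower. Among the 4 were the glial gene S100b (1422.2 in granule cells, 32.1 in ES cells) and S100a16 (1393.6 and 146.0).

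Among 17 lysyl oxidase relatives and collagen-processing genes, 11 were detected on the array labelled HB9-GFP+ or in ES cells. The array labelled HB9-GFP+ had 1 higher than in ES cells and 0 lower, beside 2.00% and 1.46% over all genes. It was Serpinh1, the collagen chaperone of the endoplasmic reticulum, at 1282.6 against 312.0. Its value in Sox1 cells, 3047.3, was higher still. For Pcolce, which encodes an enhancer of procollagen cleavage, the array labelled HB9-GFP+ gave 5226.3, with 313.6 in granule cells, 223.5 in Sox1 cells and 3384.8 in ES cells, and P4ha2, a collagen prolyl hydroxylase gene, had 628.3, 50.8, 144.0 and 419.9 in the same order. These 2 were thus highest on the arrays where all pluripotency markers were detected. In granule cells 1 of the 17 was higher and 5 lower than in ES cells, with 11 detected on either array. Over all genes 11.3% were higher and 8.27% lower.

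Matricellular and SPARC-family genes followed. Of 14 thrombospondin, CCN and other matricellular genes, 5 were detected on the array labelled HB9-GFP+ or in ES cells. The array labelled HB9-GFP+ had 1 higher and 0 lower, beside 2.00% and 1.46% over all genes. It was Thbs2, an inhibitor of angiogenesis made by fibroblasts, at 864.5 against 46.6 in ES cells. Thbs2 was at 85.7 in granule cells and 79.4 in Sox1 cells, which put it with the members undetected elsewhere. Ccn2, the connective tissue growth factor gene, instead had 2289.2 on the array labelled HB9-GFP+, 70.5 in granule cells, 5310.4 in Sox1 cells and 2186.6 in ES cells. Of 7 SPARC relatives 4 were detected on either array and 0 called against ES cells, and Sparcl1, which astrocytes make, had 40.1 on the array labelled HB9-GFP+, 9634.3 in granule cells, 118.5 in Sox1 cells and 5.1 in ES cells.

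Matrix proteases and inhibitors had 3 of 18 genes higher and 0 lower on the array labelled HB9-GFP+ than in ES cells, with 11 detected on either array. Over all genes 2.00% were higher and 1.46% lower. Timp1, an inhibitor of matrix metalloproteinases, had 3037.9 on the array labelled HB9-GFP+, 99.3 in granule cells, 181.9 in Sox1 cells and 505.8 in ES cells. Timp2, a further inhibitor, was at 1191.9, 874.1, 755.5 and 69.9 in the same order, and Mmp14, a membrane-bound metalloproteinase gene, at 514.6, 803.4, 288.4 and 126.8. Timp1 alone of the 3 was set apart on the array labelled HB9-GFP+, while Timp2 was low in ES cells only. Granule cells had 6 of the 18 higher than ES cells and 2 lower, with 12 detected on either array, beside 11.3% higher and 8.27% lower over all genes, and Timp4 (2345.4 in granule cells, 27.1 in ES cells) was among them.

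Receptors for the members showed a single call against ES cells. Of 14 integrin, syndecan and urokinase receptor genes, 10 were detected on the array labelled HB9-GFP+ or in ES cells. The array labelled HB9-GFP+ had 1 higher and 0 lower, beside 2.00% and 1.46% over all genes. It was Sdc2, a heparan sulphate proteoglycan gene of mesenchymal cells, at 522.1 against 77.9. Itga5, which pairs with Itgb1 in the main fibronectin receptor, was at 490.3 against 233.6, and Itgb1 at 468.0 against 486.6, and neither was called. Itgb8, an integrin of neural progenitors and glia, had 35.7 on the array labelled HB9-GFP+, 2913.2 in granule cells, 5012.7 in Sox1 cells and 13.6 in ES cells. Itga5 and Itgb1 were named after their values were seen.

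The remaining lists held no call between the array labelled HB9-GFP+ and ES cells. They were 15 elastic fibre genes, 6 Gla protein and vitamin K cycle genes, 13 genes of the TGF-beta pathway, 14 basement membrane genes and 14 brain matrix genes. The vitamin K enzyme gene Ggcx, which makes the Gla residues of matrix Gla protein, was detected nowhere, with 112.0 at most on any array, and it too was named after its values were seen. Of the basement membrane genes, 0 were higher and 5 lower in granule cells than in ES cells, with 13 detected on either array. Over all genes 11.3% were higher and 8.27% lower. Among the 5 were Nid2 (126.5 in granule cells, 2987.4 in ES cells) and Lamc1 (227.3 and 2124.6). Of the brain matrix genes 7 were higher in granule cells than in ES cells and 0 lower, with 7 of the 14 detected on either array, beside 11.3% higher and 8.27% lower over all genes. The list's median log2 difference was 1.16 over all 14 genes, detected or not. Over all genes detected on either array it was -0.09, so the 2 medians are of unlike sets. Tnr, the tenascin of perineuronal nets, was at 1231.7 in granule cells and 2.4 in ES cells, while Tnc, its relative among the members, was at 1123.2 and 45.2.

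**Figure D3:**
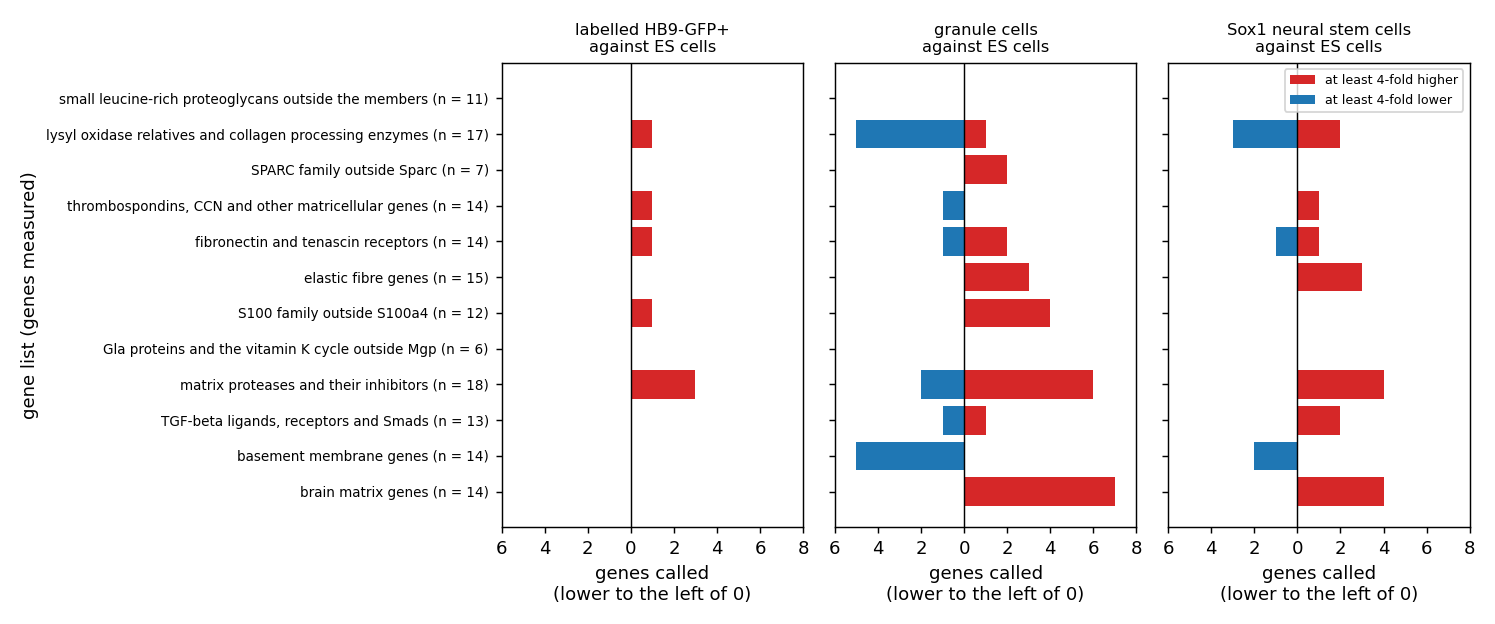
Number of genes (x axis) at least 4-fold higher, in red, or lower, in blue to the left of 0, than in ES cells, for 12 lists of related genes and each of the 3 other arrays. The array labelled HB9-GFP+ has 7 such genes, all higher, and the brain matrix list has 7 higher genes in granule cells and 4 in Sox1 cells.

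Markers of the cell types that a sample could hold were read on all 4 arrays. Of 10 fibroblast collagen genes, all 10 were detected on the array labelled HB9-GFP+, 8 in granule cells, 4 in Sox1 cells and 3 in ES cells, and their summed signals were 15803, 6184, 2784 and 1334 in that order. Their summed signal was thus highest on the array where most members were highest. Against ES cells 7 of the 10 were called higher there and 0 lower, beside 2.00% and 1.46% over all genes. Against granule cells 1, Col5a1, was called higher and 0 lower, beside 9.21% and 12.3%. None of the collagens was set apart there, and Col5a3 was higher in ES cells, at 251.7 against 224.5. Of 16 fibroblast markers other than matrix, 11 were detected on the array labelled HB9-GFP+, 7 in granule cells, 5 in Sox1 cells and 8 in ES cells. Of the 16, 11 were detected on the array labelled HB9-GFP+ or in ES cells. At least 4-fold higher on the array labelled HB9-GFP+ were 3 and lower 0, beside 2.00% and 1.46% over all genes. The 3 were S100a6, given above, Anxa1 and Cav1. Anxa1 had 1534.9 on the array labelled HB9-GFP+, against 272.7 in ES cells, and Cav1 had 1134.1 against 62.2. Prrx1, a mesenchymal transcription factor gene, had 312.9 against 11.4, but granule cells, at 307.5, matched it. Pdgfra and Snai2 had lower signals than in ES cells, at 275.4 against 423.1 and 380.9 against 617.4, and were not called. Fap, Twist1, Twist2, Tcf21 and Pi16 were undetected on every array. The labels name fibroblast feeder cells for the growth of the ES cell line, and their part in the signals was not tested.

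Other sources of matrix expression were represented by the smooth muscle and pericyte, endothelial and extraembryonic endoderm lists. On the array labelled HB9-GFP+, 3 of 12 smooth muscle and pericyte genes were detected, against 4 in ES cells. The detected ones were Acta2, at 636.2 against 171.3 in ES cells, Mcam, at 540.1 against 278.7, and Notch3, at 1159.3 against 684.5. Between these arrays 0 of the list were called, beside 2.00% higher and 1.46% lower over all genes. Myh11 and Cnn1, markers of mature smooth muscle, were undetected at 27.7 and 14.6. Of 11 endothelial genes 4 were detected on the array labelled HB9-GFP+ and 5 in ES cells, and 0 were called, beside the same shares. These 4 were Egfl7, at 496.1 against 340.9 in ES cells, Vwf, at 302.6 against 392.0, Tek, at 224.0 against 469.7, and Pecam1, at 185.2 against 232.8. Cdh5 and Tie1 were undetected, at 31.0 and 5.6. Of 13 endoderm genes 7 were detected on the array labelled HB9-GFP+ and 8 in ES cells, and their summed signal was lower than in ES cells, at 5867 against 10548. On the array labelled HB9-GFP+ 0 of them were called higher and 1 lower, beside the same shares. It was Dab2, at 232.6 against 947.7. Of 12 macrophage and microglia genes 1 was detected on each of these 2 arrays, Cd68, and Ptprc and Csf1r were undetected on both. The smooth muscle list was the single one of these 4 with a higher summed signal there than in ES cells, at 2759 against 1563.

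For granule cells, the array on which Dcn, Bgn, Lum and Tnc were also detected, 10 of 12 macrophage and microglia genes were detected, with a summed signal of 8354 against 408 for Sox1 cells and 609 for ES cells. All 10 astrocyte and Bergmann glia genes were detected in granule cells, against 4 in Sox1 cells and 5 in ES cells, and Gfap was at 2224.6 in granule cells and 13.4 in ES cells. In a list of meningeal markers, which itself holds Dcn and Lum, 4 of 10 genes were detected in granule cells, against 2 in Sox1 cells and 2 in ES cells. The meningeal genes Slc6a13, Foxc1 and Foxc2 were undetected in granule cells, at 52.5, 95.5 and 23.2. Besides Dcn and Lum, the detected ones were Igf2, at 1562.2 in granule cells against 200.0 in ES cells, and Ptgds, which oligodendrocytes also make, at 593.4 against 225.9. Igf2 was thus called higher in granule cells than in ES cells, and Ptgds was not. The part of these cells in the granule cell signals of the members was not tested.

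**Figure D4:**
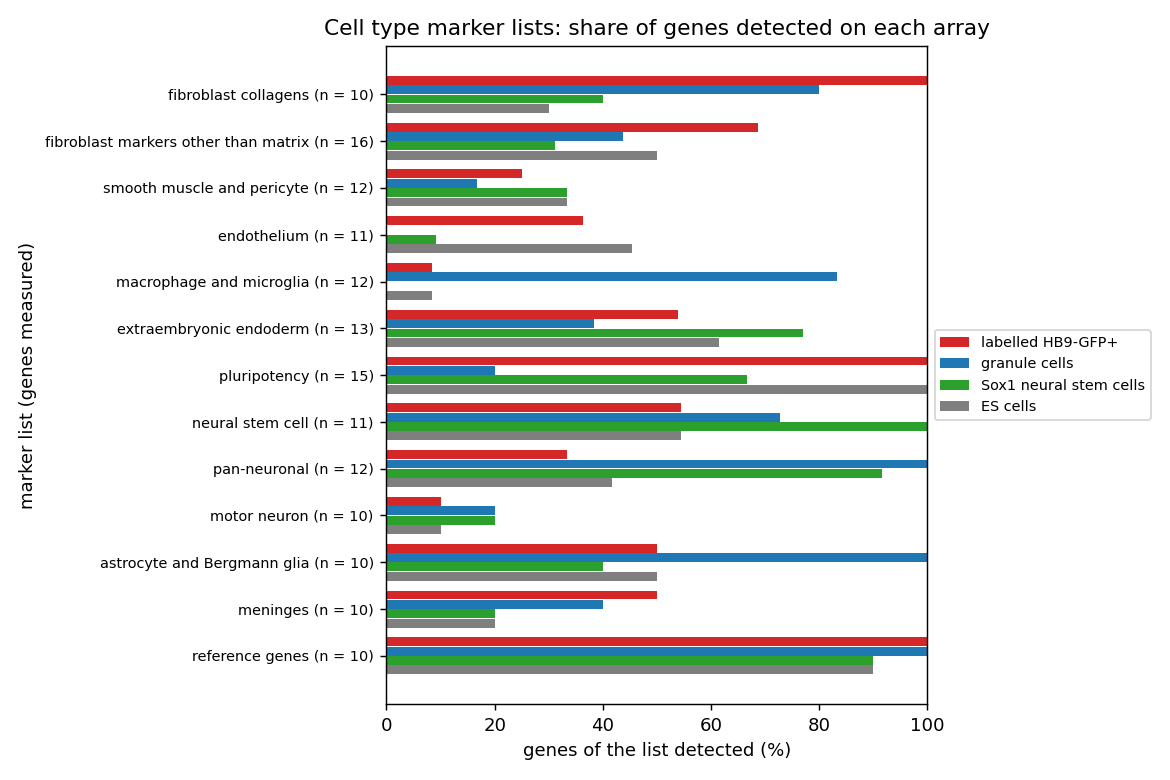
Share of the genes of each marker list (y axis, with the number measured) detected on each array (x axis, percent). Every fibroblast collagen and pluripotency gene measured is detected on the array labelled HB9-GFP+, and every astrocyte gene in granule cells.

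For the 6 members at least 4-fold above every other array on the array labelled HB9-GFP+, the genes with the most similar pattern were sought. Members were chosen in part for this pattern on the same arrays. Their nearness to each other therefore follows in part from the choice, and nothing is read from it. Likeness was the Euclidean distance between log2 profiles over the 4 arrays, each centred on its own mean, among 11570 other genes detected on some array, and 3 genes were taken per member. Dcn and Bgn were each other's nearest gene, at a distance of 0.62 log2 units. Next for Dcn were Il33 at 1.43 and Cav1 at 1.44, and for Bgn Lum at 0.88 and Col6a1 at 0.90. The nearest gene to Lum was the collagen gene Col6a1 at 0.17, followed by Cav1 at 0.46 and Ly6e at 0.60. Col6a1 had signals of 1049.2 on the array labelled HB9-GFP+, 296.9 in granule cells, 83.5 in Sox1 cells and 84.9 in ES cells.

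Mgp, Lox and S100a4, undetected outside the array labelled HB9-GFP+, had other nearest genes. S100a4 was closest to Ptgs2, the inducible cyclooxygenase gene, at 0.12, and then to Ifi27 and to Lcn2, an acute-phase gene. Mgp was closest to AI662270 at 0.71, and then to Saa3 and Lcn2. Lox was closest to Ereg at 0.23, Rtp4 at 0.24 and Hp at 0.31, and 28 genes lay within 1 log2 unit of it, against 1 for Mgp. With 4 arrays, and with the darker arrays set to a common low level, many genes share such a pattern, and the distances describe these arrays only. Over the 11 alternative settings of the closing section, the named nearest genes were replaced to a larger degree in 4. In the other 7 they were replaced to a smaller degree or not at all. A changed fold threshold cannot alter them.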

How the data were processed

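Expression was measured in 4 samples, 1 Affymetrix array each, per the labels. The deposited values are linear intensities for 45101 probe sets, from 0.1 to 43110.3. The submitters' processing notes name GCRMA with no version, but each array's mean after trimming 2% at each end was 500.0, as in a scaled average difference, so the authors' step and any background correction are uncertain and no detection flags were used. Scaling to a common mean hides differences in total RNA. Array medians were 61.9 (labelled HB9-GFP+), 90.7 (granule), 79.5 (Sox1) and 86.2 (ES).

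Probe sets with 1 gene symbol in the platform annotation were used, leaving out 932 with several symbols, 9211 with none and control probe sets. Of 34945 used, 34741 matched RefSeq (GRCm38.p6) by gene identifier. Of several probe sets, the one brightest on average (log2) stood for the gene. Averaging the 4 median log2 signals gave the low level. Folds against an array at the low level are lower bounds, and where the dimmer array lay between the low and detection levels, signals or the log2 difference are given. Precision is limited by there being 1 array per kind of cell.

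The members, gene lists and settings were chosen with earlier results of these data known. Related genes were named by a rule taking up to 4 called genes per list, the largest differences first; Tnr, Ggcx, Itga5, Itgb1, marker genes and genes named as not called fall outside it. The calling rule was tested on simulated data with noise smaller than the spread between a gene's probe sets. The changes put in lay away from the 4-fold limit, in genes above the low level. It therefore gives no check of calls near either. Tools were Python 3.11.15, pandas 2.3.3 and numpy 2.4.6. The 11 alternatives are given in the closing section. Among them, reference-gene centring used reference genes other than Hprt. Hprt had 8529.3 on the array labelled HB9-GFP+, 3348.8 in granule cells, 93.0 in Sox1 cells and 90.3 in ES cells. The cause of this difference was not tested. List genes without an annotated probe set, and protein sequences, were not analysed here.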

Additional observations from a re-analysis of the deposited data

How the results depend on the processing

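No paired analysis was possible because each kind of cell has 1 array and the labels give no replicate numbers, and no array could be left out of a group. Over 11 alternative settings, 579 log2 differences of the members moved by less than the pooled SD among a gene's probe sets and 81 by more. No called difference changed sign. The 2-fold, 8-fold and stricter detection settings cannot move a log2 difference, so all their values are among the 579 by construction. Shares beside the counts below are of all genes detected on the array, or on either array compared, at the same setting. The 6 members set apart on the array labelled HB9-GFP+ became 3 at an 8-fold threshold (Mgp, Lox and S100a4), beside 0.268%. Taking the mean over probe sets kept Mgp, Bgn, Lum and S100a4, beside 0.797%. Reference-gene centring and log2 of signal plus 100 lost Lum, beside 0.647% and 0.472%. Quantile normalization, array-median centring and a 2-fold threshold added Postn, beside 0.908%, 1.58% and 4.845%. With the mean over probe sets, 5 members were called higher on the array labelled HB9-GFP+ than in ES cells, beside 1.72%. Dcn, Lox and Tnc, each with a probe set undetected there, were not among them. Against Sox1 cells 5 were called higher, beside 5.41%, without these 3 and Fn1, whose mean log2 difference was 1.77. The 3 members higher in granule cells than in Sox1 cells became 1 with the low level doubled, with the mean over probe sets, at 8-fold and with log2 of signal plus 100. The shares were 5.72%, 5.09%, 2.39% and 4.29% in that order. Against ES cells the 3 members became 1 under the first 3 of these settings, beside 10.73%, 8.49% and 5.22%. The 7 higher on the array labelled HB9-GFP+ than in granule cells became 4 at 8-fold, beside 3.38%. Of members lower on the array labelled HB9-GFP+ than in granule cells there was 1, and of members set apart in granule cells 1, with reference-gene centring, with the mean over probe sets and at 2-fold. The shares in that order were 18.64%, 9.49% and 26.59% lower, and 7.545%, 4.39% and 13.43% set apart. Members lower in Sox1 than in ES cells numbered 1 with the mean over probe sets and at 2-fold, beside 4.91% and 19.31%. The 1 member lower in granule than in Sox1 cells became 0 with reference-gene centring and at 8-fold, beside 2.44% and 1.18%. Of related genes, the 7 higher than in ES cells became 12 with array-median centring, 4 with the mean over probe sets, 19 at 2-fold, 2 at 8-fold and 4 with log2 of signal plus 100. The shares were 4.35%, 1.72%, 11.96%, 0.504% and 1.06% in that order. The 0 related genes lower became 2 with the low level halved and 8 at 2-fold, beside 1.76% and 12.64%. The 3 set apart on the array labelled HB9-GFP+ became 8 at 2-fold and 1 at 8-fold, beside 4.845% and 0.268%. Scaling moved the median of all detected genes by 0.50 log2 units between the array labelled HB9-GFP+ and ES cells with array-median centring, and by -0.69 between it and granule cells with reference-gene centring. Of the genes called between the array labelled HB9-GFP+ and ES cells 57.7% were higher, 67.7% after quantile normalization and 89.1% with array-median centring. It was 44.8% against Sox1 cells and 63.8% with array-median centring, and 42.7% against granule cells, 22.1% with reference-gene centring and 64.5% with array-median centring. For granule cells it was 63.6% against Sox1 cells and 57.8% against ES cells, and 80% and 75.4% with reference-gene centring. Beyond what the settings' construction shows, the cause of these changes was not tested. Signals near the low level limit folds to lower bounds.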
